A study of Caenorhabditis elegans with 10 samples.

Results

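The 10 genes described here are glp-1, fbf-1 and fbf-2, which keep germline stem cells dividing, and him-3, htp-1, htp-3, rec-8, syp-1, syp-2 and spo-11, which build the meiotic chromosome and cut its DNA. They were chosen by name, and all 10 were found among the 40857 gene symbols of a table of whole-worm RNA levels from Caenorhabditis elegans. The table holds 10 libraries, 1 for each of 5 genotypes at 15 °C and at 25 °C. The genotypes were N2 (wild type), math-33(tm3561), daf-2(e1370), a strain with both of these mutations (daf-2(e1370); math-33(tm3561), below the math-33 double mutant) and, without DAF-16, daf-16(mu86); daf-2(e1370), written daf-16;daf-2. daf-2 encodes the insulin/IGF-1 receptor, daf-16 the FOXO transcription factor that it restrains, and math-33 a deubiquitylase, and 3 of the 5 genotypes carry e1370, a temperature-sensitive allele. About 3000 worms grown at 15 °C went into each sample, and they stayed at 15 °C or were moved to 25 °C for 22 hours around the L3 to L4 stages, before adulthood. Every library is thus a mixture of the germline with all somatic tissues.

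The hermaphrodite germline is a tube with a stem cell pool at its distal end, next to a somatic cell, the distal tip cell, that presents Notch ligands. GLP-1 is the Notch receptor of the germ cells, and its signal, with the RNA-binding PUF proteins FBF-1 and FBF-2, which repress mRNAs that promote meiosis, keeps these cells mitotic. Cells that leave the niche enter meiosis, where the cohesin REC-8 and the HORMA domain proteins HTP-3, HIM-3 and HTP-1 form the chromosome axis. SYP-1 and SYP-2 then join the axes of paired homologs as part of the synaptonemal complex, and SPO-11 makes the double-strand breaks from which crossovers form. In larvae that approach adulthood, germ cells of the more proximal gonad make sperm first and oocytes afterwards.

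Levels are given as FPKM, read fragments scaled to transcript length and to library depth, so genes can be compared per length. The values stepped in whole reads, which put the depth of the libraries at 25.2 to 35.2 M reads, or 12.6 to 17.6 M read pairs. At that depth 3 read pairs on a transcript of 1000 bases are worth 0.170 to 0.238 FPKM, and the 10 genes held up to 3393 pairs in a library. math-33 stood at 59.8 to 79.3 FPKM in the 6 libraries with the wild-type gene and at 13.9 to 15.9 FPKM in the 4 libraries with tm3561. A daf-16 transcript of 1523 bases held 0 reads beyond those of the short 906-base transcript in the 2 daf-16;daf-2 libraries and 195 to 362 such reads in the other 8. Markers of the zygotic embryo were near 0, since 8 listed genes summed to 0.052 to 0.985 FPKM and each of the 8 was at 0 in some library. Each group is 1 library, so no replicates stand behind a difference between 2 of them, and the interval given for it, an exact 95% interval on read pairs, covers counting error only.

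All 10 genes were measured in every library, at mean levels between 7.89 and 38.2 FPKM. By mean level over the 10 libraries the order was glp-1 (38.2 FPKM), him-3 (31.6), htp-1 (30.7), htp-3 (27.8), syp-2 (27.1), rec-8 (23.6), syp-1 (21.8), spo-11 (18.1), fbf-2 (11.3) and fbf-1 (7.89). Neighbours in this order overlapped in their ranges over the libraries, so the order within the axis and synaptonemal complex genes holds for the means and not for each library. The ratio of the highest to the lowest library ran from 1.82-fold for rec-8 to 4.93-fold for spo-11. On the log2(FPKM + 1) scale the median range of the 10 genes was 1.21, against 1.23 for the 16085 genes tested. The daf-16;daf-2 library at 15 °C was the lowest of the 10 for 8 of the genes, where it was the lowest for 21.6% of all genes tested. The math-33 library at 25 °C was the highest for 5 of the genes, against 23.8% of all genes. Summed over the 10 genes, the cool daf-16;daf-2 library held 133.9 FPKM and math-33 at 25 °C held 331.8 FPKM, and the other 8 libraries lay between 176.8 and 297.6 FPKM. Because these are bulk samples, fewer germ cells and less RNA per germ cell cannot be told apart in any of these values.

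**Figure D1:**
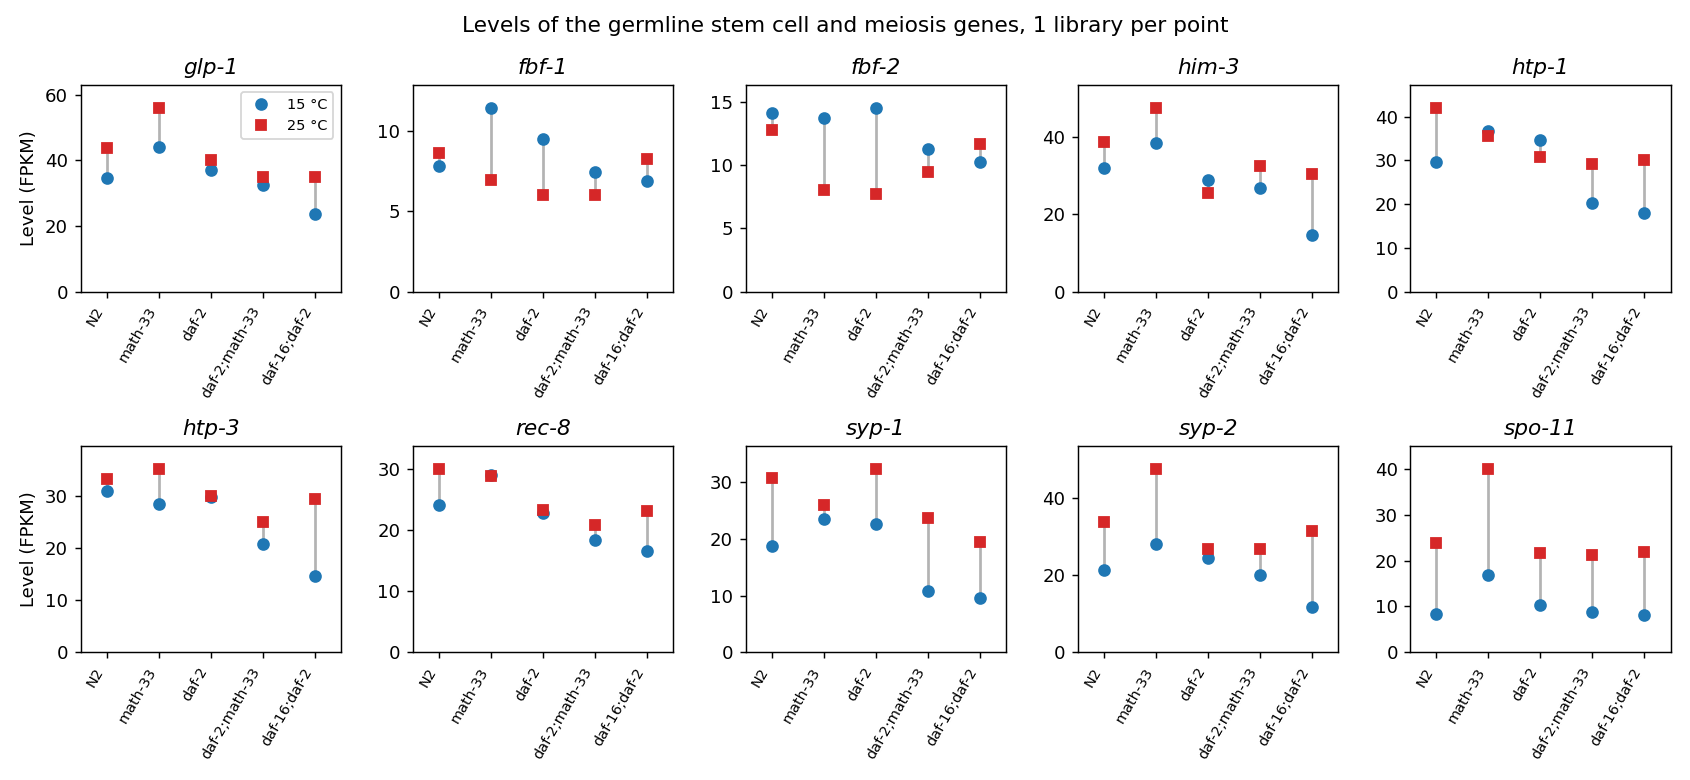
FPKM of each of the 10 genes (1 panel per gene, linear axis from 0, circles for 15 °C and squares for 25 °C) in each of the 10 libraries; each point is 1 library, so no error bar is drawn. The spo-11 panel is the only one in which every 25 °C point, from 21.3 to 40.1 FPKM, lies above every 15 °C point, from 8.13 to 16.9 FPKM.

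The comparison of 25 °C with 15 °C asks how these RNAs differ between worms shifted for 22 hours and worms kept cool, over 5 genotypes. spo-11, syp-1 and syp-2 rose at 25 °C, and none of the 10 genes fell. spo-11 had the largest change of the 10, the axis genes and glp-1 had smaller differences that did not pass the test, and fbf-1 and fbf-2 leaned lower without passing it. The test was limma on log2(FPKM + 1) over all 10 libraries, with genotype and temperature as additive terms and p-values adjusted over 16085 genes at a threshold of 0.05. The 3 of 10 called higher stand beside 14.6% of all genes called higher, and the 0 of 10 called lower beside 4.68% called lower. That split depends on scaling: 2346 genes were called higher and 753 lower as deposited, 1381 and 1734 after median centring, 1420 and 1410 after quantile normalisation, and 855 and 2948 relative to the germ granule genes, a scale on which the median of all genes moved from 0.089 to -0.27. With 1 library left out, the genes called higher numbered 657 (without the math-33 double mutant at 25 °C) to 1744. The median difference of the 10 genes was 0.31 log2 units, against 0.089 for all genes.

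spo-11 (locus T05E11.4; chromosome IV, 11123138 to 11124714, build ce10) encodes the topoisomerase-like enzyme that opens meiotic recombination by breaking DNA. At 15 °C it stood at 8.35 FPKM in N2, 16.9 in math-33, 10.4 in daf-2, 8.71 in the math-33 double mutant and 8.13 in daf-16;daf-2. At 25 °C it stood at 23.8 FPKM in N2, 40.1 in math-33, 21.7 in daf-2, 21.3 in the math-33 double mutant and 22.0 in daf-16;daf-2. The groups did not overlap, which is true in this direction of 3.05% of all genes (2.33% in the other), and math-33 was the highest library at each temperature. The fold of 25 °C over 15 °C was 2.85 in N2 (interval 2.38 to 3.44), 2.37 in math-33 (2.06 to 2.73), 2.10 in daf-2 (1.79 to 2.48), 2.45 in the math-33 double mutant (2.03 to 2.98) and 2.70 in daf-16;daf-2 (2.21 to 3.31). Over the 5 genotypes spo-11 rose by 1.23 log2 units (SE 0.10, limma adjusted p = 0.00363), a 2.34-fold difference, and it was higher in 5 of 5 genotypes. With each of the 10 libraries left out in turn the difference stayed between 1.18 and 1.29. Leaving out either library of a genotype removes that genotype from the temperature estimate. Here and below, the 10 fits thus give 1 temperature difference per genotype left out.

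syp-1 (F26D2.2; chromosome V, 16405743 to 16407587) and syp-2 (C24G6.1; chromosome V, 5536753 to 5537533) encode coiled-coil proteins of the central region of the synaptonemal complex. At 15 °C syp-1 stood at 18.8 FPKM in N2, 23.6 in math-33, 22.7 in daf-2, 10.9 in the math-33 double mutant and 9.64 in daf-16;daf-2. At 25 °C it stood at 30.7, 26.04, 32.4, 23.7 and 19.4 FPKM in the same order of genotypes. The low libraries were the 15 °C ones of the math-33 double mutant and daf-16;daf-2, and the 15 °C and 25 °C values overlapped. syp-1 rose by 0.66 log2 units (SE 0.15, limma adjusted p = 0.0264), and its fold over 15 °C ranged from 1.10 in math-33 (interval 0.974 to 1.25) to 2.17 in the math-33 double mutant (1.85 to 2.56).

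syp-2 stood at 21.4 FPKM in N2, 27.9 in math-33, 24.3 in daf-2, 19.9 in the math-33 double mutant and 11.8 in daf-16;daf-2 at 15 °C. At 25 °C it stood at 33.6, 47.5, 26.8, 26.7 and 31.3 FPKM. It was higher at 25 °C in each genotype, most in daf-16;daf-2, where the fold was 2.66 (interval 2.11 to 3.39), and least in daf-2, where it was 1.10 (0.930 to 1.31). syp-2 rose by 0.65 log2 units (SE 0.17, limma adjusted p = 0.0394). The calls of syp-1 and syp-2 each rest on several libraries: syp-1 was not called without any of the 6 libraries of N2, the math-33 double mutant and daf-16;daf-2 (differences of 0.56 to 0.66, limma adjusted p from 0.0732 to 0.0903). syp-2 was not called without any of those 6 or of the 2 math-33 libraries (0.48 to 0.71, limma adjusted p from 0.0793 to 0.0974).

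The 4 axis genes had positive differences of 0.19 to 0.34 log2 units that did not pass the test. him-3 (ZK381.1; chromosome IV, 6977515 to 6978525), a HORMA protein needed for homolog pairing and crossovers, stood at 32.0 FPKM in N2, 38.5 in math-33, 28.9 in daf-2, 26.8 in the math-33 double mutant and 14.7 in daf-16;daf-2 at 15 °C. Its 25 °C values were 38.8, 47.6, 25.5, 32.6 and 30.4 FPKM, higher in 4 of the 5 genotypes and lower in daf-2. Its difference was 0.34 log2 units (SE 0.16, limma adjusted p = 0.185).

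htp-3 (F57C9.5; chromosome I, 4827080 to 4829677), the HORMA protein that recruits the others to the axis, stood at 30.9, 28.5, 29.8, 20.8 and 14.6 FPKM at 15 °C in N2, math-33, daf-2, the math-33 double mutant and daf-16;daf-2. Its 25 °C values were 33.3, 35.2, 30.0, 25.0 and 29.5 FPKM. In daf-2 these 2 values differed by less than counting error (fold 1.004, interval 0.922 to 1.09), while in daf-16;daf-2 the fold was 2.02 (1.80 to 2.27). Over the 5 genotypes its difference was 0.33 log2 units (SE 0.15, limma adjusted p = 0.166). A 117-base transcript annotated across htp-3 stood at 6.08 to 14.1 FPKM, and how reads were shared between them was not given in the sources used here.

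htp-1 (F41H10.10; chromosome IV, 5390351 to 5391549), which guards against synapsis between non-homologous chromosomes, was at 29.7, 36.8, 34.7, 20.3 and 17.9 FPKM at 15 °C and at 42.0, 35.5, 30.7, 29.1 and 30.1 FPKM at 25 °C, in the same order. It was higher at 25 °C in N2, the math-33 double mutant and daf-16;daf-2 and lower in math-33 and daf-2. Its difference was 0.30 log2 units (SE 0.15, limma adjusted p = 0.209). Its near-identical paralog htp-2 could share its reads, so the split between them is uncertain. rec-8 (W02A2.6; chromosome IV, 13349217 to 13352003), the meiotic cohesin subunit, had the smallest ratio of highest to lowest FPKM of the 10 genes. It stood at 24.04 FPKM in N2, 28.9 in math-33, 22.8 in daf-2, 18.3 in the math-33 double mutant and 16.5 in daf-16;daf-2 when kept cool, and at 29.99, 28.8, 23.3, 20.8 and 23.03 FPKM after the shift. Its difference was 0.19 log2 units (SE 0.10, limma adjusted p = 0.231).

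glp-1 (F02A9.6; chromosome III, 9092236 to 9099255) was at 34.6 FPKM in N2, 44.1 in math-33, 36.96 in daf-2, 32.4 in the math-33 double mutant and 23.6 in daf-16;daf-2 at 15 °C. At 25 °C it was at 43.9, 56.0, 40.0, 35.1 and 35.0 FPKM. Every genotype was higher at 25 °C and every one of these 5 intervals lay above 1, with folds from 1.08 in daf-2 and in the math-33 double mutant to 1.48 in daf-16;daf-2, but the ranges of the 2 temperatures overlapped. The difference of 0.29 log2 units (SE 0.10) did not pass the test (limma adjusted p = 0.0799). Of the 10 genes, glp-1, htp-3, syp-1, syp-2 and spo-11 were higher at 25 °C in all 5 genotypes, which is true of 22.6% of all genes.

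fbf-1 (H12I13.4; chromosome II, 6078522 to 6080692) and fbf-2 (F21H12.5; chromosome II, 6089114 to 6091344) are neighbours with 8422 bases between them and encode near-identical proteins, so reads of the one may be counted for the other. fbf-2 stood at 14.1 FPKM in N2, 13.7 in math-33, 14.5 in daf-2, 11.3 in the math-33 double mutant and 10.2 in daf-16;daf-2 under cool conditions, and at 12.8, 8.03, 7.73, 9.41 and 11.6 FPKM at 25 °C. fbf-1 stood at 7.80, 11.4, 9.50, 7.44 and 6.87 FPKM at 15 °C and at 8.64, 6.96, 6.03, 6.03 and 8.25 FPKM at 25 °C. The 25 °C libraries of math-33, daf-2 and the math-33 double mutant were the 3 lowest for fbf-2, and for fbf-1 those of daf-2 and the math-33 double mutant were the lowest.

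In daf-2 the 25 °C level of fbf-2 was 1.88-fold lower (interval 1.60 to 2.21) and that of fbf-1 1.57-fold lower (1.30 to 1.90), and in math-33 they were 1.70-fold lower (1.44 to 2.02) and 1.64-fold lower (1.36 to 1.98). In daf-16;daf-2 both leaned the other way, by 1.14-fold for fbf-2 (0.957 to 1.34) and 1.20-fold for fbf-1 (0.977 to 1.48), with intervals that include 1. Over the 5 genotypes the differences were -0.35 log2 units for fbf-2 (SE 0.17, limma adjusted p = 0.192) and -0.22 for fbf-1 (SE 0.17, limma adjusted p = 0.393). fbf-2 was above fbf-1 in all 10 libraries, by 1.154-fold to 1.81-fold.

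**Figure D2:**
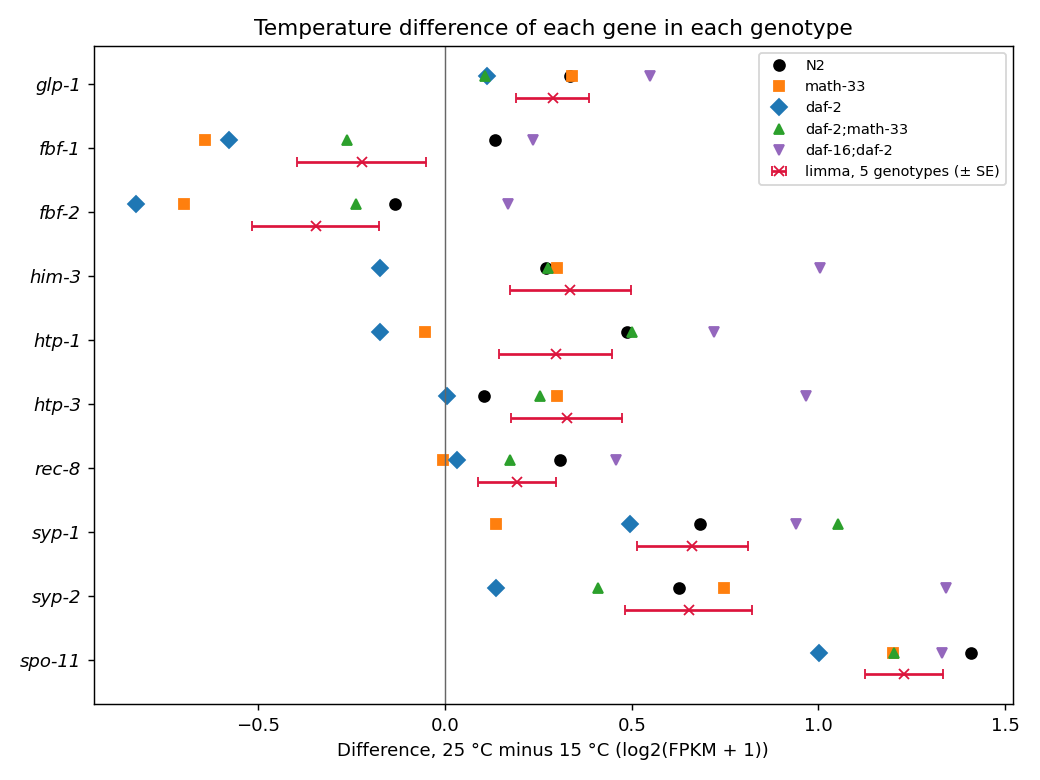
Difference of 25 °C minus 15 °C in log2(FPKM + 1) for each gene; each filled symbol is 1 genotype, and the crosses with bars are the limma difference with its standard error over the 5 genotypes. The cross of spo-11 sits farthest to the right at 1.23, those of syp-1 and syp-2 follow at 0.66 and 0.65, and those of fbf-1 and fbf-2 are left of 0.

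The ratio of spo-11 to glp-1 put a meiosis gene and a stem cell gene side by side within each library. It lay between 0.241 and 0.383 at 15 °C and between 0.543 and 0.716 at 25 °C, without overlap. The levels of spo-11 alone already did not overlap, so this is partly built in. How many other gene pairs separate in this way was not counted. The ratio of fbf-2 to glp-1 lay between 0.310 and 0.433 at 15 °C and between 0.143 and 0.332 at 25 °C, with overlap. A ratio within a library does not depend on how that library was scaled, and it shows unequal change rather than which of the 2 genes moved.

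Other genes of the same steps were read from lists. Of 10 tested genes of Notch signalling at the niche, 1 rose at 25 °C and 0 fell, with a median difference of 0.23: apx-1, a Notch ligand, by 0.85 log2 units (limma adjusted p = 0.00736). The GLP-1 target genes sygl-1 and lst-1 had differences of 0.36 and 0.22 (limma adjusted p = 0.260 and 0.196). sygl-1 stood at 58.0 FPKM in math-33 at 25 °C and at 16.4 to 28.5 FPKM in the other 9 libraries.

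Of 12 genes of the decision between mitosis and meiosis, 5 rose and 0 fell (median 0.34). These were puf-11 and puf-3, PUF proteins of the late germline and oocyte (1.12 and 1.05 log2 units), mex-3 (0.75), gld-3 (0.74) and rnp-8 (0.58), which encode RNA-binding proteins. gld-1, the translational repressor that opposes the stem cell fate, had a difference of 0.36 (limma adjusted p = 0.168).

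Of 11 other axis and cohesin genes 3 rose and 0 fell (median 0.16). lab-1, which protects cohesin on meiotic chromosomes, rose by 1.51 log2 units (limma adjusted p = 0.00768), from 8.68 to 30.8 FPKM at 15 °C to between 34.9 and 66.3 FPKM at 25 °C, without overlap. scc-1, the mitotic cohesin kleisin, rose by 0.60 and htp-2 by 0.56 (limma adjusted p = 0.0355). Of the 4 other synaptonemal complex genes, syp-3 (0.86, limma adjusted p = 0.0335) and syp-5 (0.60, limma adjusted p = 0.0223) rose and 0 fell (median 0.52).

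Homolog pairing and recombination held further changes in the direction of spo-11. Of 10 pairing genes 5 rose and 0 fell (median 0.46): hal-2 (0.75), the pairing center proteins zim-2 (0.72), zim-1 (0.63) and him-8 (0.49), and the nuclear envelope protein sun-1 (0.54). Of 29 genes of break formation and recombination, 12 rose and 0 fell (median 0.46). him-5, dsb-1 and dsb-2, which promote breaks by SPO-11, rose by 1.02, 0.86 and 0.64 log2 units (limma adjusted p = 0.0201, 0.0176 and 0.0274), and the others were him-14, com-1, zhp-1, zhp-2, rec-1, slx-1, cosa-1, mus-81 and xpf-1. DNA replication, which also marks dividing germ cells, had 3 of 13 genes higher and 0 lower (median 0.27), among them rnr-2 (0.51) and pcn-1 (0.41). With 1 library left out, from 0 to 9 of the recombination genes, 1 to 6 of the pairing genes, 0 to 2 of the other synaptonemal complex genes, 1 to 3 of the axis and cohesin genes, 4 to 6 of the decision genes, 0 to 3 of the replication genes and 1 niche gene were called higher, and 0 of any of these lists lower. Relative to the germ granule genes, 0 of the 29 recombination, 10 pairing, 4 other synaptonemal complex and 13 replication genes were called. On that scale 2 of 12 decision genes and 1 of 11 axis genes were higher, and 1 of 10 niche genes was lower. After median centring, 2 of the 29 recombination, 3 of the 10 pairing and 0 of the 4 other synaptonemal complex genes were called higher. The shares as deposited stand beside the 14.6% of all genes called higher, and the lists were not compared with each other by a test.

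**Figure D3:**
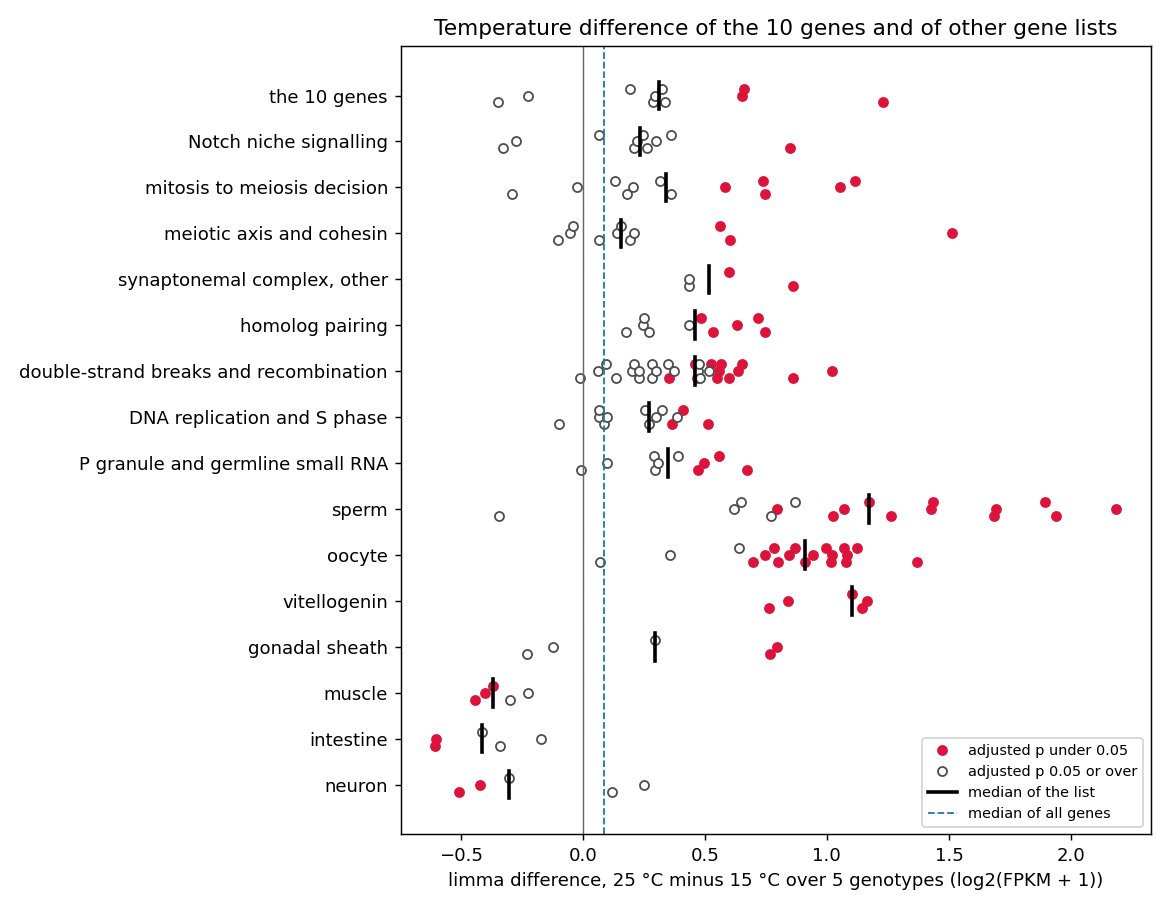
limma difference of 25 °C minus 15 °C in log2(FPKM + 1) for each tested gene of each list; each point is a gene (filled where its adjusted p is under 0.05), the short bar is the median of its list and the dashed line the median of all genes. The sperm, vitellogenin and oocyte lists have the highest medians, at 1.17, 1.10 and 0.91, and the muscle, intestine and neuron lists have negative medians of -0.37, -0.41 and -0.30.

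Markers of later germ cells and of other tissues moved with temperature too. Of 17 sperm genes 12 rose and 0 fell, with a summed level of 155 to 864 FPKM at 15 °C and 287 to 2068 FPKM at 25 °C. Of 19 oocyte genes 16 rose and 0 fell (summed 1004 to 3175 and 1615 to 5482 FPKM), and 5 of 5 vitellogenins, yolk proteins made in the intestine toward adulthood, rose. Of 10 genes of germ granules (P granules) and germline small RNA pathways, which germ cells express widely, 4 rose and 0 fell (median 0.35). Of 5 genes of the gonadal sheath, the somatic layer around the oocytes, 2 rose and 0 fell. The lists of 5 muscle, 5 intestine and 5 neuron genes had 3, 2 and 2 genes lower and 0 higher. Of the neuron genes, snb-1 and unc-119 leaned higher (0.25 and 0.12), and summed neuron levels overlapped (150 to 161 FPKM at 15 °C, 132 to 173 at 25 °C). Of all genes 14.6% were called higher and 4.68% lower. With 1 library left out, 5 to 13 sperm, 11 to 16 oocyte, 3 to 5 vitellogenin, 0 to 5 germ granule and 0 to 2 sheath genes rose. Then 0 to 3 muscle, 0 to 1 intestine and 0 to 2 neuron genes were lower. Relative to the germ granule genes, 10 of 17 sperm, 10 of 19 oocyte and 3 of 5 vitellogenin genes were called higher. The muscle, intestine, neuron and sheath lists then had 5, 4, 3 and 1 genes lower and 0 higher. On that scale 855 of all 16085 genes were called higher and 2948 lower. The part of these shifts in the results on spo-11, syp-1 and syp-2 was not tested, nor was the stage the worms had reached at each temperature.

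When levels were taken relative to the median of the germ granule genes in each library, spo-11 was still higher at 25 °C, by 0.87 log2 units (limma adjusted p = 0.00728). syp-1 (0.30, limma adjusted p = 0.156) and syp-2 then did not pass the test, and glp-1, him-3, htp-1, htp-3 and rec-8 turned to negative differences between -0.026 and -0.17. fbf-1 and fbf-2 were called lower on that scale, by -0.59 (limma adjusted p = 0.0419) and -0.71 (limma adjusted p = 0.0171). These calls stand beside 2948 of all 16085 genes called lower and 855 called higher on the same scale.

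The comparisons of math-33 with N2 and of the math-33 double mutant with daf-2 ask what loss of MATH-33 changes with wild-type daf-2 and with e1370. That allele is temperature-sensitive, and how far the receptor was impaired at 15 °C is not known from these data. In the limma fit 0 of the 10 genes passed in either comparison, nor when both backgrounds were combined, nor in the interaction of both mutations. At an unadjusted p under 0.05 the counts were 1, 1, 1 and 2 of 10, beside 18.3%, 15%, 21.4% and 8.64% of all genes. The same fit called 0.348% of all genes higher and 0.0933% lower for math-33 against N2, 0% and 0.0124% for the math-33 double mutant against daf-2, 3.37% and 0.578% for both backgrounds combined, and 0% and 0% for the interaction. Few genes of any kind passed, so the 0 of 10 is close to the background.

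spo-11 had the largest difference of the 10 for math-33 against N2, 0.83 log2 units (SE 0.16, limma adjusted p = 0.0944). Its fold was 2.02 at 15 °C (interval 1.67 to 2.48) and 1.68 at 25 °C (1.49 to 1.90). In the math-33 double mutant against daf-2 it was 0.841 (0.681 to 1.03) and 0.982 (0.852 to 1.13), and the interaction was -0.96 (SE 0.23, limma adjusted p = 0.536). glp-1 was 1.27-fold higher in math-33 than in N2 at 15 °C and 1.28-fold at 25 °C, and 1.14-fold lower in the math-33 double mutant than in daf-2 at each temperature, with an interaction of -0.53 (SE 0.22, limma adjusted p = 0.571). In math-33 against N2, 16 of 17 sperm genes at 15 °C and 7 of 17 at 25 °C were at least 1 log2 unit higher. So were 5 of 5 vitellogenins at each temperature. These counts stand beside 11.5% of all genes at 15 °C and 5.25% at 25 °C. Summed oocyte levels at 15 °C were 1376 FPKM in N2 and 3175 FPKM in math-33. Summed muscle levels were 2914 and 2050 FPKM, and summed intestine levels 5847 and 3719 FPKM, in the same order. The part of these shifts in the values of spo-11 and glp-1 was not tested.

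At 15 °C all 10 genes were lower in the math-33 double mutant than in daf-2, with a median difference of -0.31, against 0.10 for all genes, and 8 of the 10 intervals lay below 1. How many of all genes were lower or higher by any amount, or had such intervals, was not counted for any pair of libraries. Relative to the germ granule genes the median was -0.19, where that of all genes was 0.23. None reached 1 log2 unit (1.97% of all genes were that much lower and 8.8% higher). The largest were syp-1, at 10.9 against 22.7 FPKM (2.09-fold lower, interval 1.78 to 2.44), htp-1, at 20.3 against 34.7 FPKM (1.71-fold lower, 1.49 to 1.97), and htp-3, at 20.8 against 29.8 FPKM (1.43-fold lower, 1.30 to 1.58). At 25 °C the median was -0.05 (0.057 for all genes), or -0.38 relative to the germ granule genes (-0.28 for all genes). 2 genes, him-3 and fbf-2, were higher, and 0 of 10 passed 1 log2 unit (11% of all genes higher and 5.13% lower). syp-1 was again lower, 1.37-fold (1.22 to 1.54), and over both temperatures its limma difference was -0.72 (SE 0.24, adjusted p = 0.228).

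In math-33 against N2 at 15 °C, 8 of the 10 genes were higher, with a median of 0.31, against 0.079 for all genes. Relative to the germ granule genes these medians were -0.21 and -0.43. As deposited 0 of 10 passed 1 log2 unit, where 11.5% of all genes were that much higher and 2.79% lower. At 25 °C 5 were higher and 5 lower, with a median of 0.01 and again 0 of 10 past 1 log2 unit (5.25% and 7.16% of all genes). fbf-2 was 1.59-fold lower there (1.34 to 1.89) and syp-2 was 1.41-fold higher (1.22 to 1.64).

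**Figure D4:**
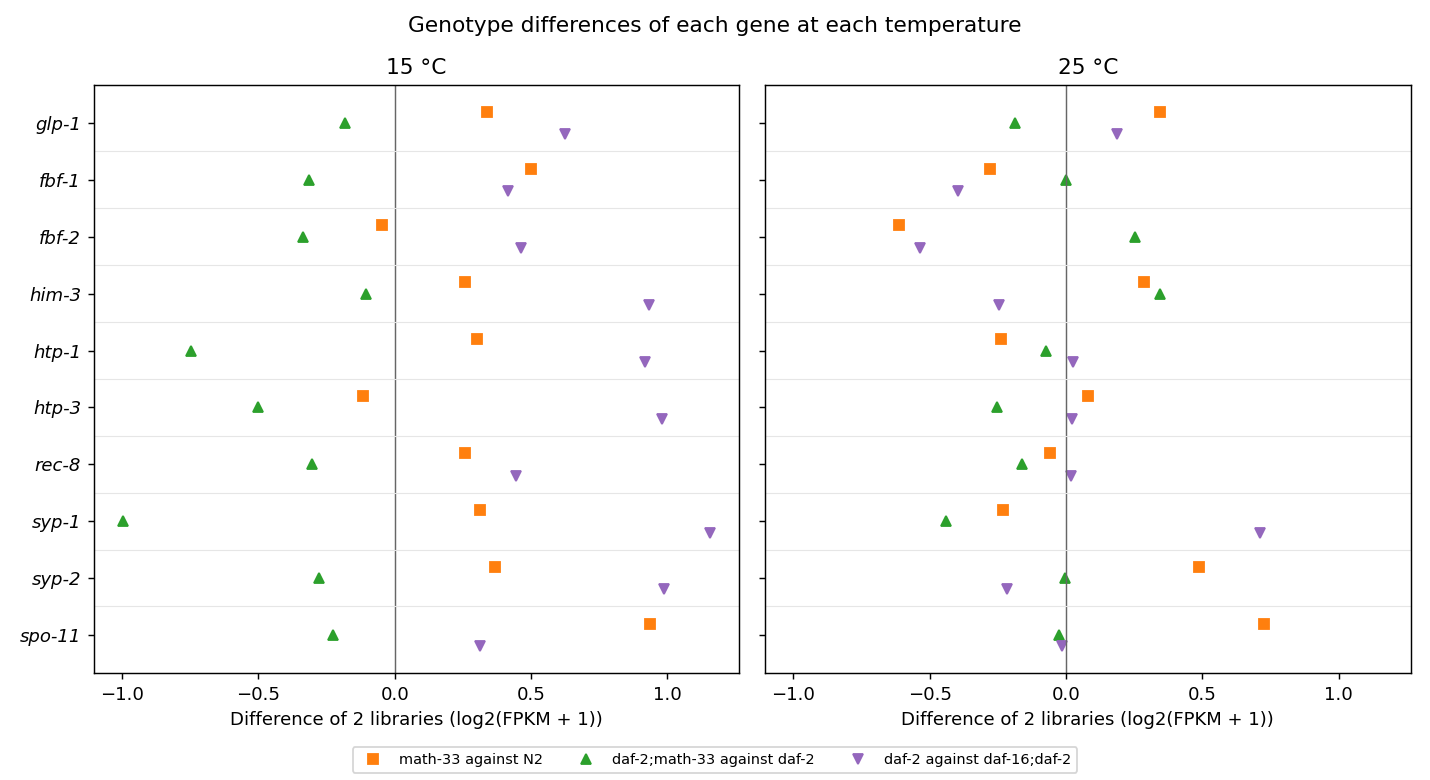
Difference between 2 libraries in log2(FPKM + 1) for each gene at 15 °C (left) and 25 °C (right); squares are math-33 against N2, triangles pointing up the math-33 double mutant against daf-2, and triangles pointing down daf-2 against daf-16;daf-2, with 1 library each and no error bar. At 15 °C all 10 upward triangles lie left of 0 and all 10 downward triangles right of it. At 25 °C 8 upward triangles lie left of 0 and 2 right of it, while 5 downward triangles lie on each side. The 2 comparisons share the daf-2 library.

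Removal of DAF-16 in worms that carry e1370 is read from the difference between daf-2 and daf-16;daf-2. At 15 °C all 10 genes were higher in daf-2 and all 10 intervals lay above 1, against the daf-16;daf-2 library that was the lowest for 8 of them. The median was 0.77 log2 units, where that of all genes was 0.018. How many of all genes were higher by any amount, or had such intervals, was not counted in this or the other pairs of libraries. Relative to the germ granule genes the median was 0.44 (-0.31 for all genes), with 0 of 10 past 1 log2 unit. syp-1 was the 1 gene past 1 log2 unit, at 22.7 against 9.64 FPKM (2.36-fold, interval 1.99 to 2.80), where 4.15% of all genes were that much higher and 5.43% lower. syp-2 (2.07-fold), htp-3 (2.04-fold), him-3 (1.97-fold) and htp-1 (1.94-fold) came next, and rec-8 (1.38-fold), fbf-1 (1.38-fold), fbf-2 (1.42-fold) and glp-1 (1.57-fold) differed less, and spo-11 least (1.27-fold, 1.02 to 1.59).

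At 25 °C the same comparison had a median of 0.00, with 5 genes higher and 5 lower and 0 of 10 past 1 log2 unit (7.06% and 5.09% of all genes). htp-1, htp-3 and rec-8 lay within counting error of equal levels, with folds of 1.02 (0.897 to 1.16), 1.02 (0.929 to 1.11) and 1.01 (0.905 to 1.13). syp-1 was 1.67-fold higher in daf-2 (1.48 to 1.89), and fbf-2 was 1.51-fold lower (1.27 to 1.79). Over both temperatures limma called 0 of the 10 genes, 2 of them at an unadjusted p under 0.05 (syp-1 0.93, SE 0.24, adjusted p = 0.249, and glp-1 0.41, SE 0.15, adjusted p = 0.371), beside 12.2% of all genes at that unadjusted p. At the adjusted threshold 0.0311% of all genes were higher and 0.00622% lower.

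Seen from the shift, daf-16;daf-2 was the genotype in which all 10 genes were higher at 25 °C, with a median of 0.83 log2 units against 0.134 for all genes. Relative to the germ granule genes these medians were 0.27 and -0.43. The cool daf-16;daf-2 library is the same one as in the comparison with daf-2. 3 of the 10, spo-11, syp-2 and him-3, were at least 1 log2 unit higher, beside 10.2% of all genes that were so much higher and 4.19% lower. In daf-2, which shares e1370 with daf-16;daf-2, the median was 0.02 (0.124 for all genes) and 1 gene, spo-11, passed 1 log2 unit (11.7% and 3.72% of all genes). Relative to the germ granule genes the daf-2 median was -0.12 (-0.017 for all genes). The medians were 0.32 in N2, 0.22 in math-33 and 0.27 in the math-33 double mutant (0.080, 0.023 and 0.059 for all genes). Relative to the germ granule genes they were -0.16, 0.19 and -0.33, where those of all genes were -0.40, -0.0024 and -0.54. As deposited, N2, math-33 and the math-33 double mutant had 1, 1 and 2 genes past 1 log2 unit (spo-11 in each, and syp-1 in the math-33 double mutant). All genes past 1 log2 unit made up 13.3% higher and 3.82% lower in N2, 6.63% and 6.73% in math-33, and 10.1% and 3.27% in the math-33 double mutant. The germ granule list, summed, went from 474 to 695 FPKM in daf-16;daf-2 and from 637 to 625 FPKM in daf-2, and its part in these values was not tested.

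For daf-2 against N2, which asks what the receptor mutation changes, limma called 0 of the 10 genes (0 at an unadjusted p under 0.05) and 0% of all genes in either direction. At 15 °C the median was 0.13, with 7 of 10 genes higher and 0 past 1 log2 unit (2.91% and 2.85% of all genes). At 25 °C 9 of the 10 genes were lower and 1, syp-1, was higher, with 0 past 1 log2 unit (9.33% and 9.28%). The median was -0.33, against -0.033 for all genes. Relative to the germ granule genes it went the other way, to 0.14, where that of all genes was 0.43. fbf-2 was 1.65-fold lower (1.40 to 1.97), him-3 1.52-fold lower (1.32 to 1.76), fbf-1 1.43-fold lower (1.17 to 1.75) and htp-1 1.37-fold lower (1.21 to 1.54) in daf-2 at 25 °C.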

How the data were processed

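FPKM values per transcript were deposited by the authors as 1 table of 47467 transcripts. Poly(A) RNA with a RIN above 8 was sequenced as stranded paired-end libraries, per the labels' protocols, and the submitters' processing notes name STAR, HOMER and edgeR, without versions or roles, and genome build ce10. How paralogs shared reads was not given in the sources used here. The 1104 transcripts without a name (1.72 to 1.97% of summed FPKM) were left out. For a symbol with several transcripts, the one with the highest mean FPKM was used. Low values were whole multiples of 1 read (tolerance 0.01%) in 100% of cases, which gave the depth; a fragment was taken as 2 reads.

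The 16085 genes that reached 1 FPKM in 2 or more libraries were tested with limma 3.58.1 in R 4.3.3 on log2(FPKM + 1), which understates changes of low genes, with a mean-variance trend, 4 residual degrees of freedom and Benjamini-Hochberg adjustment. The spread is that of genotypes around the additive fit, not of replicates. The genotype contrasts average both temperatures. A genotype difference that changes with temperature, as can occur with a temperature-sensitive allele, enters that spread and makes a call less likely. In simulated data for the temperature comparison 56, 74, 94 and 98% of 50 genes changed by 1, 2, 3 and 4 log2 units were recovered over 16085 genes. Another 12 genes were called falsely. Only 200 genes were changed and no genotype differences were simulated, so these rates do not give the power of the test on the real data. Recovered counts were used for intervals only.

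The text names the 10 genes and the 10 genes nearest to each mean profile by root-mean-square distance. From the lists it names genes past the threshold, but not all of them, and up to 2 with the largest differences. It also names lst-1, gld-1, snb-1 and unc-119, which fall outside that rule. The genes and lists were chosen with earlier results of these data known.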

Additional observations from a re-analysis of the deposited data

Results flagged for a closer look

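8 values of 7 genes stood out because loss of math-33 went one way in the N2 background and the other way in the daf-2 background, with each counting interval on its own side of 1. At 15 °C these genes were higher in math-33 than in N2 and lower in the math-33 double mutant than in daf-2. The gap between the backgrounds, in log2 units, was 1.31 for syp-1, 1.05 for htp-1, 0.814 for fbf-1, 0.646 for syp-2, 0.561 for rec-8 and 0.522 for glp-1. At 25 °C it was 0.531 for glp-1, in the same direction, and 0.865 for fbf-2, which was lower in math-33 and higher in the math-33 double mutant. The difference was not tested at a single temperature, since each group is 1 library. The values at 15 °C all rest on the same libraries, and how many of all genes had such opposite intervals was not counted. Over both temperatures the limma interaction passed for 0 of the 10 genes, with a lowest adjusted p of 0.536 (spo-11), and 2 of them had an unadjusted p under 0.05, as did 8.64% of all genes.

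htp-1 stood out for the shift to 25 °C, being higher in N2, the math-33 double mutant and daf-16;daf-2 and lower in daf-2, with a gap of 0.893 log2 units between the ends of that range. This difference was not tested.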

How the results depend on the processing

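No paired analysis was possible because each group holds 1 library, so no replicate numbers could be paired; the genotype term of the temperature test already pairs 15 and 25 °C within a genotype. spo-11 was called higher at 25 °C under every alternative run, by 0.87 to 1.30 log2 units. The count of genes called for temperature was 3; it was 1 after quantile normalisation and from 1 to 3 with 1 library left out. Without the filter on low values, after median centring and without the trend, only spo-11 and syp-1 were called. Relative to the germ granule genes, the genes called were spo-11 (higher) and fbf-1 and fbf-2 (lower), and no longer syp-1 and syp-2. On that scale 855 of all 16085 genes were called higher and 2948 lower. The counts of genotype calls stayed at 0 throughout. Relative to the germ granule genes, 5 temperature differences changed sign: glp-1 to -0.073, him-3 to -0.026, htp-1 to -0.065, htp-3 to -0.036 and rec-8 to -0.17. syp-2 lost its call without the filter on low values, after median centring, after quantile normalisation and without the trend (limma adjusted p = 0.0704, 0.101, 0.0802 and 0.0577), and syp-1 after quantile normalisation (0.0519).

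Counts of genes at least 1 log2 unit apart moved as follows. With a pseudocount of 0.1 they became 1 higher for math-33 against N2 at 15 °C, 1 lower for the math-33 double mutant against daf-2 at 15 °C, 3 (higher in daf-2) at 15 °C for the pair daf-2 and daf-16;daf-2 and 5 higher for the shift in daf-16;daf-2. After median centring, and likewise after quantile normalisation, they became 1 lower for the math-33 double mutant against daf-2 at 15 °C, 0 higher and 1 lower for the shift in daf-2, 1 higher for the shift in the math-33 double mutant, and 2 higher for the shift in daf-16;daf-2. Relative to the germ granule genes they became 0 for that pair at 15 °C and 0 for the shift in N2, daf-2, the math-33 double mutant and daf-16;daf-2. The cause was not tested.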

Other observations

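Other genes were ranked by how closely their log2(FPKM + 1) profile over the 10 libraries followed the mean profile of the 7 meiosis genes, among 10057 genes. The nearest was htp-2, the paralog of htp-1, at a root-mean-square distance of 0.087 log2 units, followed by T28A8.3 (0.094) and rmh-1 (0.109), a partner of the Bloom helicase in crossover formation. C14B1.7, T07C4.3, C49C3.6, C35D10.7, ekl-7, prcc-1 and hmg-3 (0.124) completed the nearest 10. glp-1 lay nearer to the mean profile of the meiosis genes (0.154) than to that of the 3 stem cell genes, which includes it (0.260), while fbf-1 (0.429 and 0.102) and fbf-2 (0.520 and 0.195) did the reverse. spo-11 was the farthest of the 7 from the meiosis mean, at 0.417. The genes nearest to the stem cell mean were luc-7L3 (0.062), thoc-1 (0.066), wdr-12, C49H3.3, W06E11.1, fipp-1, swp-1, tufm-2, R07B7.2 and ZK686.2 (0.101). The stem cell mean holds fbf-1 and fbf-2 themselves, which may share reads, and the meiosis mean holds htp-1, which may share reads with htp-2, so their nearness is partly built in. These distances are descriptions over 10 libraries and say nothing of shared function.

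In both daf-2 backgrounds combined, 1 of 12 decision genes and 1 of 10 pairing genes were called higher with loss of math-33, beside 3.37% of all genes, and 0 genes of the niche, axis, synaptonemal complex, recombination, replication and germ granule lists. fog-1, a CPEB protein that specifies sperm fate, was higher by 1.32 log2 units (SE 0.27, limma adjusted p = 0.0478), and hal-3, a pairing gene, by 0.996 (SE 0.19, limma adjusted p = 0.0442). fog-1 stood at 25.8 FPKM in N2, 53.997 in math-33, 28.3 in daf-2 and 40.0 in the math-33 double mutant at 15 °C, and at 10.9, 65.8, 22.7 and 55.6 FPKM at 25 °C, so each math-33 mutant library was above its control. Neither call is firm. With 1 library left out, fog-1 passed in 0 of 10 fits (limma adjusted p from 0.0527 to 0.191) and hal-3 in 2 of 10 (0.0376 to 0.187), and all genes called higher fell from 542 to as few as 6 (without the math-33 double mutant at 15 °C). In the same contrast 9 of 17 sperm genes, 3 of 19 oocyte genes and 5 of 5 vitellogenins rose.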
